A study of Homo sapiens with 18 samples.

Results

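The genes described are the snoRNA host genes, long noncoding RNAs whose introns carry small nucleolar RNAs (snoRNAs). They were taken by name, as the genes called SNHG followed by a number together with GAS5, ZFAS1 and EPB41L4A-AS1. That rule gave 31 genes of the 60675 gene rows, all annotated as lncRNA, and 28 of them were among the 26804 genes with enough counts to be tested. SNHG18, SNHG27 and SNHG28 were not tested, since SNHG18 had 0 counts in all 18 libraries and the other two stayed at 0.260 CPM or below, where CPM is the count scaled to a common library size. SNHG31 was tested at a level of 0.0300 to 0.586 CPM.

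The cells were HEK293T, a human embryonic kidney line, in which YTHDF1, YTHDF2 or YTHDF3 was fused to ADAR and switched on with 1 µg/mL doxycycline for 24 h. YTHDF proteins bind m6A, a methyl mark on adenosines of RNA, and the fused ADAR deaminates adenosines near the bound site. Every group was also given 100 µg/mL cycloheximide for 10 min, which holds ribosomes on RNA, before lysis and a sucrose gradient whose polysome fractions were pooled. Each line, called here YTHDF1-ADAR, YTHDF2-ADAR or YTHDF3-ADAR, gave 3 libraries of total RNA and 3 of polysome RNA. No line without a fusion was analysed here, so all 6 groups carry one, and the labels do not say whether the 3 libraries of a group came from separate cultures, which means that p-values measure the spread between these libraries, which may be technical. The kit was strand-specific and used after depletion of ribosomal RNA.

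A snoRNA host gene gives rise to small RNAs and to a spliced RNA from the same transcript. The introns are trimmed to snoRNAs, which stay in the nucleus and guide the chemical modification or the cutting of ribosomal RNA, or to scaRNAs, which act on spliceosomal RNAs in Cajal bodies. The exons are spliced into an RNA with little coding capacity that can leave the nucleus. For GAS5, whose name stands for growth arrest-specific, that spliced RNA is known to be engaged by ribosomes and then destroyed by nonsense-mediated decay, the pathway that removes RNAs whose reading frame ends early. Many host genes begin with a C followed by a run of pyrimidines, the 5′ terminal oligopyrimidine (TOP) start that they share with ribosomal protein genes.

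Start sites differed among the host genes. RefSeq windows on GRCh38.p14 were found for 27 of the 31 genes, and SNHG6, SNHG9, SNHG15 and SNHG25 had no entry. A C that begins a run of 5 or more pyrimidines (C or T) at the annotated start stood in 7 of the 27 windows (25.9%), beside 1104 of 27305 windows of all genes (4.04%). The search read the gene's own strand only. Such a run within 10 bases of the start stood in 16 of the 27 (59.3%), beside 33.3% of all windows. The 50-base stretches below run from 20 bases before the RefSeq start to 30 bases from it on. They are shown to contrast the 6 tested genes that have the run with 5 that do not, and capitals mark the run, or the first base where there is none.
SNHG5 (chr6:85678704-85678753, minus strand): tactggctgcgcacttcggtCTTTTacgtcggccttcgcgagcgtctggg
SNHG19 (chr16:2155329-2155378, minus strand): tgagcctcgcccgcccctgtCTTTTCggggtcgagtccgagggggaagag
SNHG4 (chr5:139274081-139274130, plus strand): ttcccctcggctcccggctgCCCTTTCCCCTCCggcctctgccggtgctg
SNHG32 (chr6:31834896-31834945, plus strand): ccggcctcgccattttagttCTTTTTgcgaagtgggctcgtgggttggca
SNHG12 (chr1:28581844-28581893, minus strand): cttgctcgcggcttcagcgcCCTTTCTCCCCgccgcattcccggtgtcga
ZFAS1 (chr20:49278622-49278671, plus strand): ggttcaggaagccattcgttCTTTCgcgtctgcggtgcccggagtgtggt
SNHG3 (chr1:28505923-28505972, plus strand): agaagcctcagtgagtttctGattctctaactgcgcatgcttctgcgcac
SNHG17 (chr20:38435299-38435348, minus strand): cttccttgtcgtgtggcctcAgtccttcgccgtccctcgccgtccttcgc
GAS5 (chr1:173869016-173869065, minus strand): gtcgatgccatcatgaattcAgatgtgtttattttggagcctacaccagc
SNHG1 (chr11:62855856-62855905, minus strand): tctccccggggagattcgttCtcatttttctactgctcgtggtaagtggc
SNHG7 (chr9:136728155-136728204, minus strand): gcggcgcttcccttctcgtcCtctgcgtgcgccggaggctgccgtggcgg
The RefSeq start and the start of the counted gene were not always the same base. They coincided for SNHG19 and SNHG7, while the counted gene began 199 bases upstream for SNHG5 and 163 bases downstream for GAS5. A pyrimidine run at the start is a description of these letters and not evidence of a TOP start in these cells.

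In total RNA the host genes together held 1855 ± 86.8 CPM in YTHDF1-ADAR (mean ± SD, n = 3), 1835 ± 94.9 in YTHDF2-ADAR and 2199.9 ± 300.3 in YTHDF3-ADAR. On polysomes they held 1154 ± 23.0, 1149 ± 110.5 and 985 ± 250.1 CPM. Per exon length the most abundant was SNHG16, which surrounds the SNORD1 genes, at 66.8 ± 2.91 RPKM (CPM per kilobase of exon, mean ± SD, n = 3) in YTHDF1-ADAR. Next came SNHG19 at 37.7 ± 3.55, SNHG3 at 36.1 ± 2.698, SNHG25 at 33.9 ± 3.25 and SNHG29 at 33.4 ± 2.71 RPKM, which did not differ beyond their SDs. GAS5 stood at 26.8 ± 1.53 and SNHG1 at 17.5 ± 1.47 RPKM in the same line. SNHG19 and SNHG25 have the shortest counted exons of the tested genes, 342 and 278 bases, and so rank far lower in CPM than in RPKM.

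Library depth ran from 42699303 to 67549159 counts, and the host genes took between 0.0943% and 0.229% of them. Each fused gene was highest in its own line, as YTHDF1 showed with 392 ± 46.5 CPM in YTHDF1-ADAR total RNA against 83.1 ± 5.10 in YTHDF2-ADAR. VIM, NEFM and PAX2, known to be on in HEK293 lines, were detected in all 9 total RNA libraries, and PTPRC, ALB and HBB of other cell types stayed at or below 0.346 CPM. In YTHDF3-ADAR the total RNA library of replicate 1 stood apart from replicates 2 and 3 for many host genes. GAS5 had 145, 312 and 309.9 CPM in the 3 replicates, and for 13 of the 28 tested host genes replicate 1 lay inside the range of the other lines. Results that rest on it are therefore given with and without it. In YTHDF3-ADAR polysome RNA, replicate 2 was lowest for SNHG16, SNHG29 and SNHG5.

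Polysome RNA was compared with total RNA within each line, which asks how much of each host RNA travels with ribosomes. No host gene was called higher on polysomes. Those called lower were 13 of 28 in YTHDF1-ADAR, 14 in YTHDF2-ADAR and 18 in YTHDF3-ADAR (quasi-likelihood F test of edgeR, with p adjusted by Benjamini and Hochberg over all tested genes and called under 0.05). Of all tested genes 11.9%, 9.04% and 12.1% were called lower in the same comparisons, and of the 6240 tested lncRNA genes 16.5%, 13.0% and 15.8%. The median log2 fold change of the host genes was -0.56, -0.57 and -0.99, against 0.03, 0.03 and -0.05 over all tested genes. Between libraries, all 3 polysome values lay below all 3 total RNA values for 19, 19 and 16 host genes, beside 22.3%, 21.5% and 15.2% of all genes. CPM is a share of each library, so a negative value says that a gene held a smaller share of polysome RNA than of total RNA. Fewer cells with an RNA and less of it per cell cannot be told apart.

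The host genes fell into 3 sets by these calls. The 13 lower in all 3 lines were SNHG3, SNHG4, SNHG5, SNHG6, SNHG8, SNHG10, SNHG16, SNHG17, SNHG19, SNHG20, SNHG22, SNHG25 and SNHG26. The share of all tested genes lower in all 3 lines was not counted. It cannot exceed the share called lower in YTHDF2-ADAR, 9.04% of all tested genes and 13.0% of the lncRNA genes. GAS5, SNHG29, SNHG32, ZFAS1 and EPB41L4A-AS1 were called lower in YTHDF3-ADAR alone, and SNHG9 in YTHDF2-ADAR alone, with no difference between lines that passed the test. The other 9 were called in no line: SNHG1, SNHG7, SNHG11, SNHG12, SNHG14, SNHG15, SNHG21, SNHG30 and SNHG31. Of the 13, 11 were called in every fit that left out 1 library of the line, and SNHG8 and SNHG16 were not. With the replicate number as a block, EPB41L4A-AS1 was also lower in YTHDF1-ADAR (edgeR adjusted p = 0.0175) and YTHDF2-ADAR (0.0157), and SNHG12 in all 3 lines (0.0142, 0.0127 and 0.00132).

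The sets moved with the libraries in the fit and with the scaling. With the spread taken from the compared libraries alone, 18 host genes were called lower in YTHDF1-ADAR and 19 in YTHDF2-ADAR, both then with GAS5, SNHG29, SNHG32, EPB41L4A-AS1 and SNHG12. Over all 26804 tested genes that fit called 4543 and 4278 lower in these lines. In YTHDF3-ADAR that fit called 6: SNHG3, SNHG4, SNHG5, SNHG17, SNHG19 and SNHG20. It called 208 of all genes lower there. Without normalization factors 10, 10 and 15 host genes were lower, and the median of all genes moved to 0.46, 0.40 and 0.25 on the log2 scale. Over all tested genes 1527, 1364 and 1668 were then lower and 10895, 9096 and 6791 higher. Among the host genes SNHG1, SNHG7, SNHG14 and ZFAS1 were then called higher in YTHDF1-ADAR, SNHG7 in YTHDF2-ADAR and SNHG14 in YTHDF3-ADAR. Without YTHDF3-ADAR replicate 1 of total RNA 17 host genes were lower in that line, and without replicate 1 of both fractions 18. These fits called 3137 and 3708 of all 26804 tested genes lower.

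**Figure D1:**
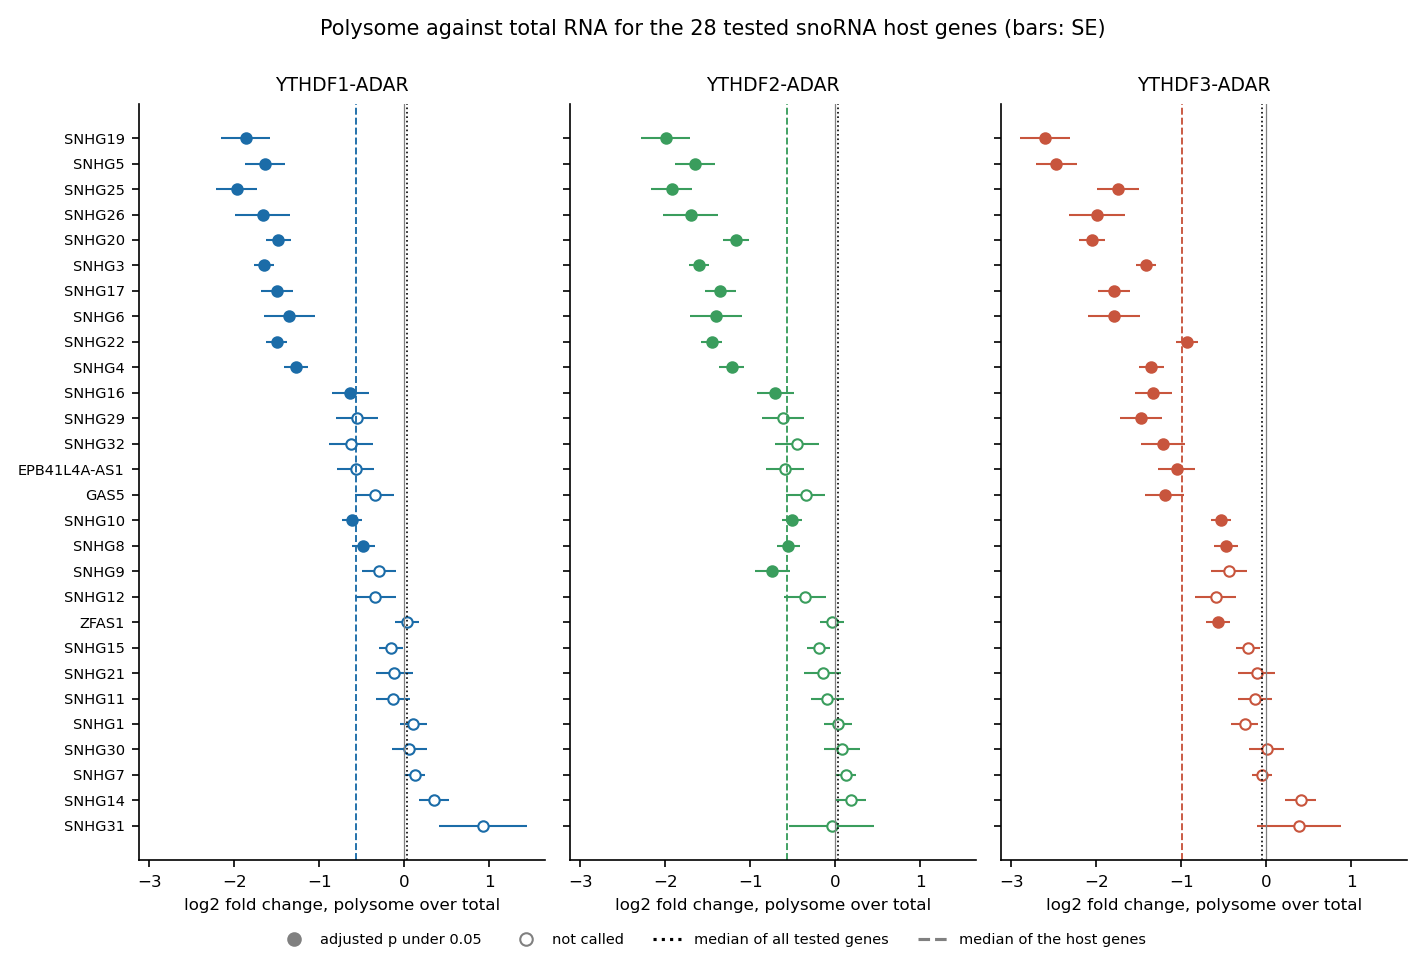
Log2 fold change of polysome over total RNA (x axis) for each of the 28 tested snoRNA host genes (y axis, ordered by the mean over lines), in 1 panel per line; bars are standard errors, filled points passed the test, and the vertical lines mark 0 and the medians of all tested genes and of the host genes. SNHG19 to SNHG4 sit at or left of -0.93 in each panel, while SNHG7, SNHG30 and SNHG1 sit near 0.

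SNHG19, a short gene that surrounds SNORD60, had the lowest mean fold change of all host genes. Its total RNA level was 14.3, 12.1 and 12.3 CPM in YTHDF1-ADAR and its polysome level 3.66, 3.44 and 3.52 CPM in the 3 replicates. In YTHDF2-ADAR it had 13.7, 11.1 and 11.7 CPM in total and 4.26, 2.39 and 2.53 in polysome RNA. In YTHDF3-ADAR it had 9.66, 17.9 and 18.5 CPM in total and 2.27, 1.60 and 3.68 in polysome RNA. The groups did not overlap in any line, and SNHG19 was 3.64, 3.98 and 6.09 times lower on polysomes, with log2 fold changes of -1.86, -1.99 and -2.61 (SE 0.29, 0.29 and 0.29) and edgeR adjusted p of 0.000364, 0.000283 and 3.07e-05.

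SNHG5, which surrounds SNORD50B, was the second lowest and far more abundant in CPM. YTHDF1-ADAR cells held 128, 128 and 114 CPM in total and 38.7, 38.8 and 41.5 in polysome RNA. The YTHDF2-ADAR libraries held 85.2, 81.5 and 75.0 CPM in total and 33.0, 23.4 and 20.9 in polysome RNA. Those of YTHDF3-ADAR held 129, 171 and 168 CPM in total and 25.6, 17.3 and 41.4 in polysome RNA. No polysome library reached any total RNA library of its line, and the log2 fold changes were -1.64, -1.65 and -2.47 (SE 0.23, 0.23 and 0.24; edgeR adjusted p = 0.000197, 0.000247 and 6.60e-06).

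SNHG25, which surrounds SNORD104, was lower on polysomes by a like amount in each line. Its total RNA levels were 10.4, 8.59 and 9.33 CPM in YTHDF1-ADAR, with 2.52, 2.64 and 2.03 on polysomes. They were 9.07, 8.002 and 8.50 CPM in YTHDF2-ADAR, with 2.80, 1.93 and 2.02 on polysomes. In YTHDF3-ADAR the values were 8.20, 4.33 and 4.03 CPM in total RNA, where replicate 1 was the highest, and 1.87, 1.33 and 1.76 on polysomes. Fold changes were -1.97, -1.92 and -1.74 on the log2 scale (SE 0.24, 0.24 and 0.24; edgeR adjusted p = 4.95e-05, 8.24e-05 and 0.000192), without overlap.

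SNHG3 carries SNORA73A and SNORA73B, H/ACA RNAs known for a role in the processing of ribosomal RNA. Its levels were among the steadiest: 157, 135 and 150.1 CPM in total and 45.2, 48.6 and 47.3 in polysome RNA of YTHDF1-ADAR. YTHDF2-ADAR had 155, 155 and 153 CPM in total and 53.9, 47.3 and 51.7 in polysome RNA. For YTHDF3-ADAR the values were 139, 126 and 118 CPM in total and 37.8, 53.1 and 53.2 in polysome RNA. The polysome share was 3.13, 3.03 and 2.66 times lower, with log2 fold changes of -1.65, -1.60 and -1.41 (SE 0.12, 0.12 and 0.12) and edgeR adjusted p of 2.34e-07, 3.41e-07 and 1.32e-06. SNHG3 shares 5.9% of its counted exon bases with RCC1 on the same strand.

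SNHG17, the host of SNORA71 genes on chromosome 20, stood at 199.5, 199.8 and 176 CPM in YTHDF1-ADAR total RNA and at 66.8, 71.8 and 65.5 CPM on polysomes. In YTHDF2-ADAR it stood at 204, 181 and 179.6 and 78.0, 78.6 and 64.9 CPM. In YTHDF3-ADAR it stood at 190.0, 128 and 120.4 and 56.1, 31.5 and 39.7 CPM. Replicate 1 of YTHDF3-ADAR total RNA lay with the other lines, and replicates 2 and 3 lay below them. SNHG17 was lower on polysomes without overlap by -1.50, -1.35 and -1.79 on the log2 scale (SE 0.19, 0.19 and 0.19; edgeR adjusted p = 5.91e-05, 0.000179 and 1.46e-05).

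SNHG4, which holds SNORA74A and shares 14.0% of its counted exon bases with MATR3, was lower to a similar degree in the 3 lines. Total RNA held 63.8, 58.0 and 64.9 CPM in YTHDF1-ADAR and polysome RNA 23.5, 24.8 and 29.0. For YTHDF2-ADAR these were 67.7, 73.6 and 69.4 CPM and 30.8, 31.4 and 28.3. For YTHDF3-ADAR they were 68.2, 60.6 and 58.2 CPM and 21.9, 19.4 and 32.0. Groups did not overlap, at log2 fold changes of -1.27, -1.22 and -1.35 (SE 0.15, 0.14 and 0.15; edgeR adjusted p = 2.64e-05, 5.00e-05 and 1.84e-05).

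The other strongly lower host genes were SNHG20, SNHG26, SNHG6 and SNHG22. SNHG20, which surrounds SCARNA16, had log2 fold changes of -1.48, -1.17 and -2.05. SNHG26 had -1.67, -1.70 and -1.99 and SNHG6 -1.35, -1.41 and -1.79, with SEs of 0.30 to 0.33. SNHG22 had -1.50, -1.46 and -0.93. Of the 4 genes, no polysome library overlapped the total RNA libraries of its line.

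SNHG16, the most abundant host gene, fell less. It had 374, 343 and 358 CPM in YTHDF1-ADAR total RNA and 225, 220.1 and 248 on polysomes. It had 436, 397 and 378 CPM in YTHDF2-ADAR total RNA and 267, 232 and 242 on polysomes. It had 343, 490.4 and 477 CPM in YTHDF3-ADAR total RNA and 163, 105 and 252 on polysomes. The groups did not overlap, and the log2 fold changes were -0.63, -0.71 and -1.33 (SE 0.22, 0.22 and 0.22; edgeR adjusted p = 0.0462, 0.0347 and 0.000667). Both YTHDF3-ADAR groups were spread more widely than those of the other lines. In YTHDF1-ADAR the call of SNHG16 was lost when any 1 of the 6 libraries was left out (edgeR adjusted p = 0.0806 to 0.131), and likewise in YTHDF2-ADAR (0.0696 to 0.109).

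SNHG8, the host of SNORA24, and SNHG10, the host of SCARNA13, showed small falls of similar size. SNHG8 had 51.4, 46.9 and 45.6 CPM in total and 33.7, 36.1 and 33.2 in polysome RNA of YTHDF1-ADAR. It had 50.8, 43.1 and 46.3 and 37.6, 27.2 and 30.8 CPM in YTHDF2-ADAR. It had 39.1, 41.6 and 39.2 and 24.5, 25.7 and 36.2 CPM in YTHDF3-ADAR. The log2 fold changes of SNHG8 were -0.48, -0.55 and -0.47 (SE 0.14, 0.14 and 0.14; edgeR adjusted p = 0.0206, 0.0124 and 0.0239) without overlap, and those of SNHG10 were -0.62, -0.50 and -0.53. The call of SNHG8 was lost in 3 of 6 fits that left out 1 library in YTHDF1-ADAR (total RNA replicate 1, polysome replicates 1 and 3). It was lost in 2 of 6 in YTHDF2-ADAR (polysome replicates 2 and 3) and in 4 of 6 in YTHDF3-ADAR (replicates 1 and 2 of either fraction), with edgeR adjusted p of up to 0.110. Of the counted exon bases of SNHG8, 37.6% also lie in PRSS12 on the opposite strand.

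**Figure D2:**
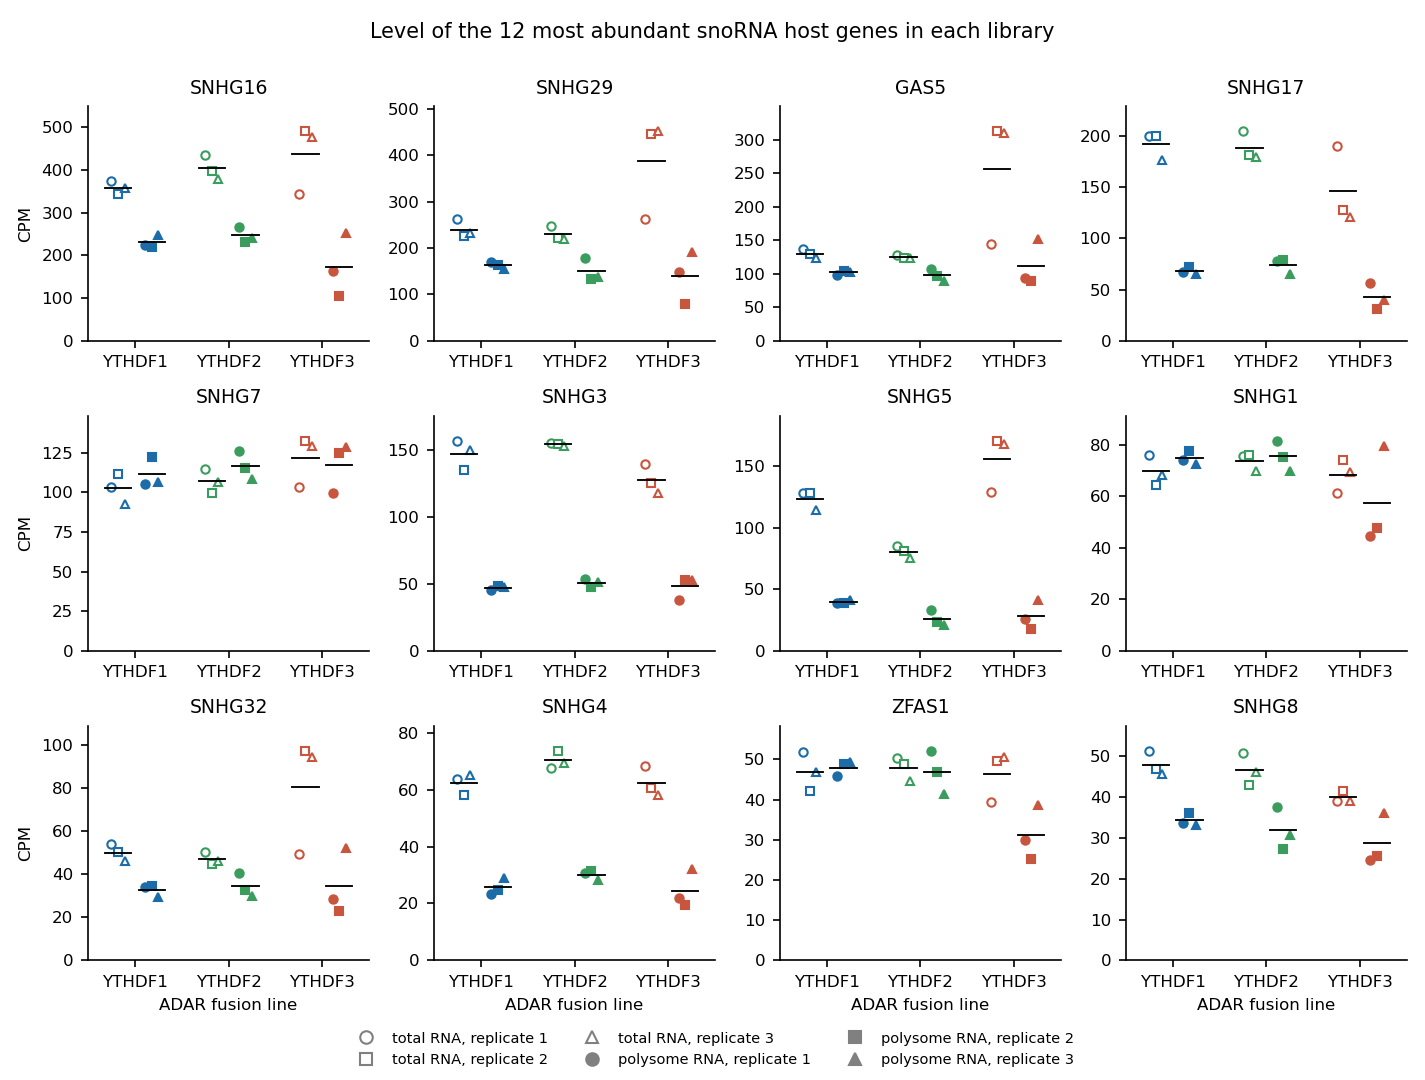
CPM (y axis, from 0) of the 12 most abundant snoRNA host genes, 1 panel each, in every library of the 3 lines (x axis); open symbols are total RNA, filled symbols polysome RNA, shapes give the replicate number and black bars the group means. SNHG3, SNHG5 and SNHG17 separate widely between fractions, SNHG7 and SNHG1 do not, and YTHDF3-ADAR total RNA replicate 1 lies below replicates 2 and 3 for GAS5, SNHG29 and SNHG32.

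GAS5, SNHG29, SNHG32 and EPB41L4A-AS1 passed the test in YTHDF3-ADAR and lay lower by less in the other lines. GAS5 had 138, 129 and 123 CPM in YTHDF1-ADAR total RNA and 98.2, 105 and 103 on polysomes, which do not overlap. It had 128, 123 and 123 CPM in YTHDF2-ADAR total RNA and 107, 97.1 and 89.8 on polysomes, again without overlap. In YTHDF3-ADAR the total RNA values 145, 312 and 309.9 overlapped the polysome values 94.3, 89.4 and 152, since replicate 1 of total RNA lay below replicate 3 of polysome RNA. The log2 fold changes were -0.35, -0.35 and -1.19 (SE 0.23, 0.23 and 0.23; edgeR adjusted p = 0.306, 0.345 and 0.00220). Without total RNA replicate 1 the log2 fold change of GAS5 in YTHDF3-ADAR was -1.40 (SE 0.16; edgeR adjusted p = 4.83e-05).

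SNHG29, which surrounds SNORD49A, SNORD49B and SNORD65, followed the same order. Its values were 262, 225 and 232 CPM in total and 170.4, 163 and 155 in polysome RNA of YTHDF1-ADAR. They were 247, 220.4 and 219.8 and 178, 134 and 137 CPM in YTHDF2-ADAR. They were 263, 445 and 451 and 148, 79.7 and 191 CPM in YTHDF3-ADAR. Polysome libraries lay below total RNA libraries in every line, with log2 fold changes of -0.56, -0.61 and -1.47 (SE 0.24, 0.24 and 0.25; edgeR adjusted p = 0.115, 0.101 and 0.000799).

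SNHG32, the host of SNORD48 and SNORD52, had 54.2, 50.3 and 46.2 CPM in total and 34.0, 34.5 and 29.4 in polysome RNA of YTHDF1-ADAR. The YTHDF2-ADAR libraries gave 50.5, 44.8 and 46.1 and 40.6, 32.9 and 30.2 CPM. Those of YTHDF3-ADAR gave 49.6, 97.5 and 94.6 and 28.7, 23.1 and 52.5 CPM, where total RNA replicate 1 overlapped polysome replicate 3. Log2 fold changes were -0.62, -0.45 and -1.21 (SE 0.26, 0.26 and 0.26; edgeR adjusted p = 0.0996, 0.275 and 0.00450). EPB41L4A-AS1, which surrounds SNORA13, had -0.57, -0.59 and -1.05 without overlap, and 56.4% of its counted exon bases lie opposite EPB41L4A exons.

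ZFAS1, the host of the SNORD12 genes, did not separate the fractions in the first 2 lines. YTHDF1-ADAR gave 51.8, 42.2 and 46.9 CPM in total and 45.7, 48.9 and 49.2 in polysome RNA. YTHDF2-ADAR gave 50.2, 48.8 and 44.7 and 52.1, 46.9 and 41.4 CPM. YTHDF3-ADAR gave 39.3, 49.5 and 50.5 and 29.8, 25.3 and 38.6 CPM, the one line without overlap. Its log2 fold changes were 0.03, -0.03 and -0.57 (SE 0.14, 0.14 and 0.14; edgeR adjusted p = 0.905, 0.912 and 0.00997). The YTHDF3-ADAR call of ZFAS1 was lost without polysome replicate 2 (0.0593).

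SNHG9, which surrounds SNORA78, stood at 5.42, 4.55 and 4.74 CPM in YTHDF2-ADAR total RNA and 3.10, 2.49 and 3.19 CPM on polysomes. Its log2 fold changes were -0.30, -0.74 and -0.44 (SE 0.20, 0.21 and 0.21; edgeR adjusted p = 0.322, 0.0216 and 0.159). The YTHDF2-ADAR call was lost in 4 of 6 fits without 1 library (without total RNA replicate 1 or 3 or polysome replicate 1 or 2; 0.0533 to 0.0921). In YTHDF3-ADAR the gene was called without polysome replicate 3 (0.00755).

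SNHG1, SNHG7 and SNHG15 are abundant host genes that were called in no line. SNHG7, the host of SNORA17A and SNORA17B, had 103, 112 and 92.9 CPM in total and 106, 122 and 107 in polysome RNA of YTHDF1-ADAR. YTHDF2-ADAR libraries had 115, 99.5 and 106 and 126, 115 and 108 CPM, and those of YTHDF3-ADAR 103, 132 and 129 and 99.4, 125 and 128 CPM. The groups overlapped in every line. The log2 fold changes of SNHG7 were 0.12, 0.12 and -0.05, with 95% intervals (normal, from the SE) of -0.12 to 0.36, -0.11 to 0.36 and -0.29 to 0.19.

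SNHG1, the host of SNORD22 and SNORD25 to SNORD30, had 75.9, 64.5 and 68.3 CPM in total and 74.1, 77.7 and 72.6 in polysome RNA of YTHDF1-ADAR. The YTHDF2-ADAR values were 75.6, 76.0 and 69.8 and 81.3, 75.1 and 69.8 CPM. The YTHDF3-ADAR values were 61.2, 73.9 and 69.2 and 44.6, 47.5 and 79.3 CPM, with polysome replicates 1 and 2 below all total RNA libraries and replicate 3 above them. Log2 fold changes of SNHG1 were 0.10, 0.03 and -0.25 (SE 0.16, 0.16 and 0.16; edgeR adjusted p = 0.697, 0.928 and 0.298), and SNHG15 had -0.16, -0.20 and -0.22. Without polysome replicate 3 SNHG1 was called lower in YTHDF3-ADAR (edgeR adjusted p = 0.00185). SNHG12, at -0.34, -0.36 and -0.60, was called lower there without total RNA replicate 3 or polysome replicate 1 (0.0319 and 0.0218). For SNHG1, SNHG8, SNHG9 and SNHG15 the counted exons cover the whole gene span, so reads from introns of these genes were counted too.

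SNHG14 and SNHG31 had the highest mean fold changes, and neither passed the test. SNHG14 is the long imprinted transcript of chromosome 15 that carries the SNORD115 and SNORD116 clusters and runs opposite UBE3A. It had 4.35, 4.81 and 6.18 CPM in YTHDF1-ADAR total RNA and 6.60, 6.59 and 6.38 on polysomes, the one case in which all 3 polysome libraries of a host gene lay above all 3 of total RNA. YTHDF2-ADAR had 4.43, 5.74 and 5.11 and 5.73, 5.25 and 6.38 CPM, and YTHDF3-ADAR 6.49, 3.81 and 4.66 and 6.29, 7.42 and 6.12 CPM. Log2 fold changes of SNHG14 were 0.35, 0.18 and 0.41 (SE 0.18, 0.18 and 0.18; edgeR adjusted p = 0.189, 0.570 and 0.127). Without YTHDF3-ADAR total RNA replicate 1, SNHG14 was called higher in that line (log2 fold change 0.72, SE 0.17, edgeR adjusted p = 0.00538). SNHG31 had 0.0300, 0.461 and 0.291 CPM in total and 0.406, 0.586 and 0.568 in polysome RNA of YTHDF1-ADAR, with fold changes of 0.92, -0.04 and 0.39 (SE 0.51, 0.50 and 0.49).

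The small RNAs inside the host genes were counted as genes of their own. By coordinates 144 snoRNA and scaRNA rows lay within 30 host genes. SNHG14 held 84 of these, none of which had enough counts to be tested, and of the 60 others 55 were tested, in 25 host genes. Reads of a mature snoRNA and of unspliced host RNA cannot be told apart. Of the 60 rows outside SNHG14, 40 lay wholly inside exons counted for the host, so that such reads could fall to either row. The 11 snoRNAs that RefSeq places inside GAS5, from SNORD74 to SNORD81 with SNORD44, SNORD47 and SNORA103, were not analysed here.

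Most of the nested small RNAs that were tested held a smaller share of polysome RNA than of total RNA. Of the 55 tested, 36 were called lower in YTHDF1-ADAR, 36 in YTHDF2-ADAR and 42 in YTHDF3-ADAR (edgeR, background 11.9%, 9.04% and 12.1%) and 0 were called higher, at median log2 fold changes of -1.52, -1.51 and -1.49. The small RNA lay below its host gene for 46, 42 and 38 of the 55, a difference that was not tested. Both were called lower for 21, 21 and 29 small RNAs, the small RNA alone for 15, 15 and 13, the host alone for 4, 5 and 5, and neither for 15, 14 and 8. Without YTHDF3-ADAR total RNA replicate 1 the count in that line was 30 lower and 2 higher, at a median of -0.99. Over all tested genes that fit called 3137 lower and 3926 higher. With the spread taken from the compared libraries alone the count of small RNAs was 4 lower, beside 208 of all tested genes.

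The most abundant nested rows were SNORA73A and SNORA73B of SNHG3, SNORD49B of SNHG29 and SCARNA13 of SNHG10. SNORA73A stood at 6.92 ± 0.746 against 26.4 ± 0.815 CPM (mean ± SD, n = 3, polysome against total RNA) in YTHDF1-ADAR. Its log2 fold changes were -1.93, -1.95 and -1.37 (SE 0.15, 0.15 and 0.15; edgeR adjusted p = 7.23e-07, 7.89e-07 and 2.32e-05), while SNHG3 itself had -1.65, -1.60 and -1.41. SNORA73B had -1.70, -1.75 and -1.28. SNORD49B, a C/D box snoRNA, had -0.91, -0.87 and -1.68 (SE 0.26, 0.26 and 0.26; edgeR adjusted p = 0.0204, 0.0310 and 0.000478), so that it was called in all 3 lines and SNHG29 in 1.

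SCARNA13, a scaRNA, was the one of these 4 that was not called. It stood at 11.5 ± 3.30 against 13.3 ± 1.60 CPM in YTHDF1-ADAR, and its log2 fold changes of -0.21, -0.11 and 0.07 (SE 0.18, 0.18 and 0.18; edgeR adjusted p = 0.452, 0.746 and 0.842) did not pass the test while those of SNHG10 did.

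Further pairs are named after their values were seen. SNHG7 was called in no line, while its SNORA17A had -1.38, -1.74 and -1.49 (edgeR adjusted p = 0.00573, 0.00164 and 0.00520). SNHG15 was called in no line, while SNORA9 had -1.52, -1.40 and -1.18 (edgeR adjusted p = 0.00252, 0.00537 and 0.0157). SCARNA16 of SNHG20 had -3.20, -2.75 and -3.53, the lowest of these pairs. SNORA74A of SNHG4 had -0.47, -0.53 and -0.28 and was not called, although SNHG4 was. Of the C/D snoRNA rows of SNHG1, none was called in YTHDF1-ADAR or YTHDF2-ADAR, and SNORD25, at -0.68, and the SNORD22 rows were called lower in YTHDF3-ADAR. Rows that share a name, as for SNORD22, SNORA16A and SNORA17B, or that overlap an unnamed row, can split reads between near-identical copies and are uncertain.

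**Figure D3:**
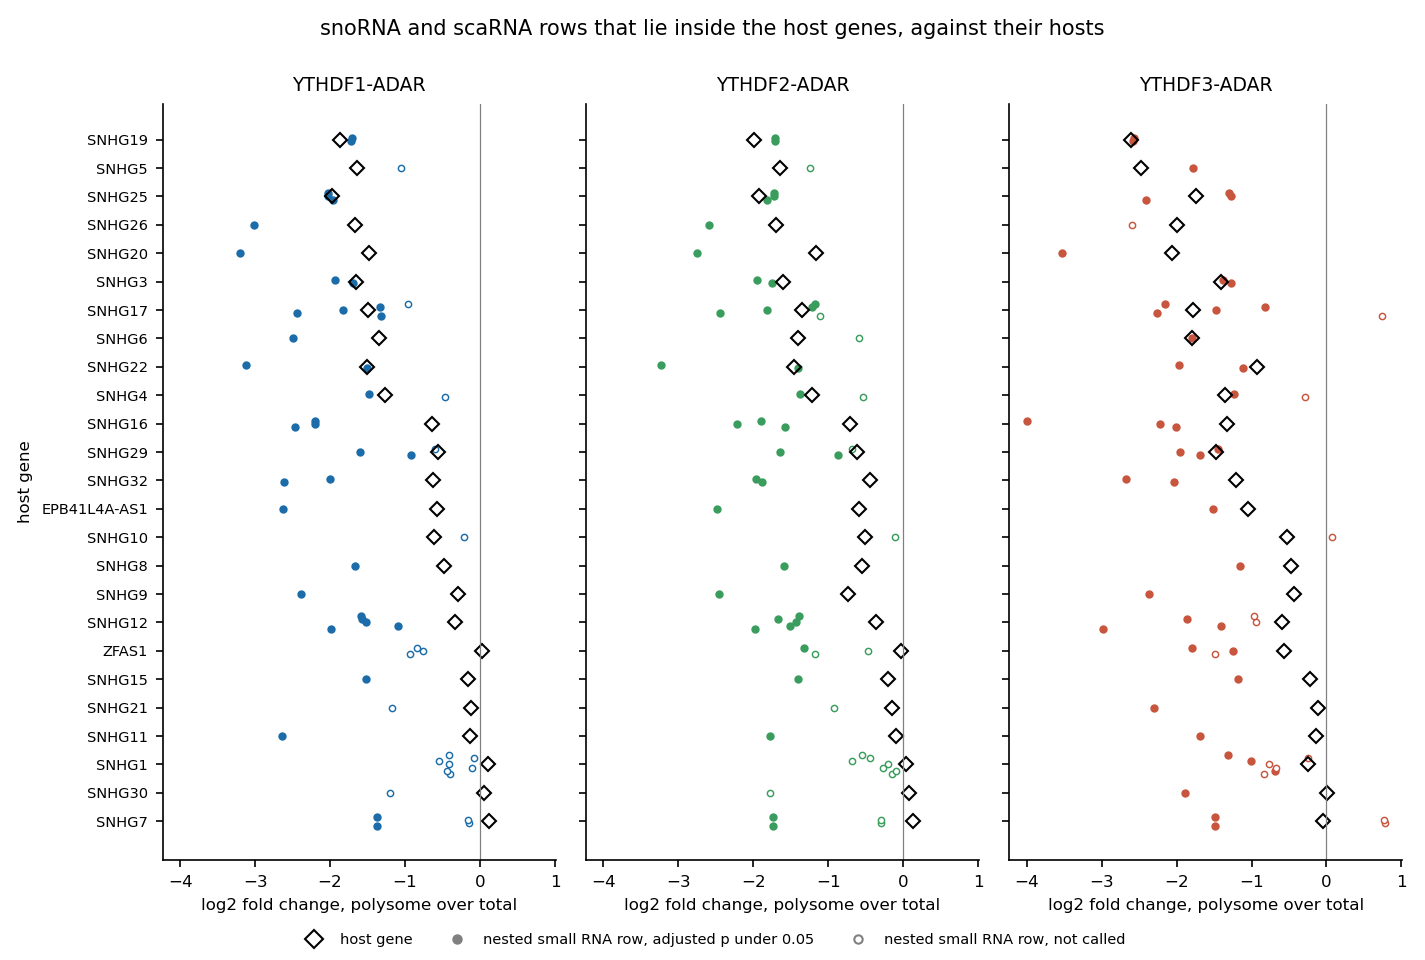
Log2 fold change of polysome over total RNA (x axis) for each tested nested small RNA and for its host gene, with the 25 host genes on the y axis and 1 panel per line; each dot is 1 of the 55 small RNAs, filled where it passed the test, and the diamond is the host. Of the 55 dots 46, 42 and 38 lie left of the diamond of their host in the 3 lines.

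The host genes with a pyrimidine run at the printed start were compared with the others as a description. The 6 tested genes with the run (SNHG4, SNHG5, SNHG12, SNHG19, SNHG32 and ZFAS1) had a median of -1.02 for the fold change averaged over lines, from -2.15 to -0.19, and 3 of the 6 were lower in all 3 lines. The 18 with a window and no run had a median of -0.59, from -1.79 to 0.42, and 8 of the 18 were lower in all 3 lines. SNHG17 and SNHG3, whose printed starts lack the run, lay among the lowest, and ZFAS1 and SNHG12, which have it, were near 0 or little below it.

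The share of the gene span that is counted as exon was described in the same way. The 7 whose counted exons cover 90% or more of the gene span had a median of -0.43, and 1 of them, SNHG8, was lower in all 3 lines. For the 21 with a smaller cover the median was -0.89, and 12 were lower in all 3 lines. Across the 28 genes, which share their libraries and are not independent, the mean fold change and the exon length had Pearson r = 0.27 and Spearman rho = -0.01. For the exon share of the span r was 0.06 and rho 0.03, and for the mean log2 CPM r was -0.10 and rho -0.07. Exons overlapped those of another gene in part of the set, as 72.9% of the exon bases of SNHG21 did on the same strand. The strand setting of the counting is unstated in the sources, so reads of a host gene and its antisense partner cannot be told apart.

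Protein-coding genes that also carry snoRNAs, mostly ribosomal protein genes and factors of translation, had medians near 0 in YTHDF1-ADAR and YTHDF2-ADAR and below 0 in YTHDF3-ADAR. Of the 42, 5 were called lower and 0 higher in YTHDF1-ADAR, 2 and 0 in YTHDF2-ADAR, and 25 and 1 in YTHDF3-ADAR (edgeR). Of all tested genes 11.9%, 9.04% and 12.1% were called lower and 9.27%, 6.71% and 8.01% higher. Their medians were 0.05, 0.07 and -0.58 on the log2 scale, beside -0.56, -0.57 and -0.99 for the noncoding hosts. The most abundant were RPS2, EEF2, RPL3 and RACK1. RPS2, a protein of the small ribosomal subunit, was lower in each line at -1.24, -1.21 and -1.76 (SE 0.19, 0.19 and 0.20; edgeR adjusted p = 0.000440, 0.000678 and 2.79e-05). EEF2, the elongation factor that moves the ribosome along, had -0.40, -0.24 and -0.92, and RPL3, of the large subunit, 0.07, 0.12 and -0.67, both called in YTHDF3-ADAR alone. The RPL3 call was lost without polysome replicate 2 or total RNA replicate 2 or 3 of that line (edgeR adjusted p up to 0.115). RACK1, a protein of the small subunit, had 0.20, 0.20 and -0.37 and was not called.

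The counts of protein-coding hosts moved with the libraries used. In YTHDF1-ADAR 2 were lower without polysome replicate 2 or 3 or total RNA replicate 1, and 3 without polysome replicate 1. Fits without 1 library of that line called 2092 to 2586 of all tested genes lower. In YTHDF2-ADAR 1 was lower without polysome replicate 2 or 3 or total RNA replicate 1, where 1505 to 1880 of all tested genes were lower. The compared libraries alone gave 8 lower and 5 higher in YTHDF1-ADAR and 7 and 7 in YTHDF2-ADAR. Over all 26804 tested genes those fits called 4543 lower and 3347 higher, and 4278 and 4058. In YTHDF3-ADAR, without polysome replicate 2, 15 of the 42 were called lower, and without total RNA replicate 2, 17. Of all tested genes 1949 and 2305 were lower in these fits. Without total RNA replicate 1, 26 were lower and 4 higher, beside 3137 and 3926 of all tested genes. With the spread from the compared libraries alone 1 was lower, beside 208 of all tested genes. With the replicate block 6 were lower and 2 higher in YTHDF2-ADAR, beside 4010 and 4148 of all tested genes. Without normalization factors 24, 22 and 8 were higher and 1, 1 and 14 lower. Over all tested genes 10895, 9096 and 6791 were then higher and 1527, 1364 and 1668 lower. The difference of the noncoding from the protein-coding hosts was described by these counts and was not tested.

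Proteins that build snoRNPs around snoRNAs were the next list. Of 17 such genes, 1, 0 and 1 were called lower (11.9%, 9.04% and 12.1% of all tested genes) and 2, 2 and 0 higher (9.27%, 6.71% and 8.01%), at medians of 0.16, 0.18 and 0.19. In YTHDF1-ADAR these counts are near the shares of all genes. NHP2, a core H/ACA protein, was higher in the first 2 lines at 0.51, 0.51 and 0.19 (edgeR adjusted p = 0.0175, 0.0211 and 0.394). NOP56, a core C/D protein whose gene is itself a snoRNA host, was lower in YTHDF1-ADAR and YTHDF3-ADAR at -0.49, -0.33 and -0.49 (edgeR adjusted p = 0.0269, 0.148 and 0.0274). The NHP2 call was lost in YTHDF1-ADAR without polysome replicate 2 or total RNA replicate 3 and in YTHDF2-ADAR without polysome replicate 1 or total RNA replicate 2 or 3 (edgeR adjusted p up to 0.0732 and 0.0995). NOP56 was lost in YTHDF1-ADAR without any 1 of the compared libraries, total RNA replicate 3 excepted, and in YTHDF3-ADAR without total RNA replicate 1 or 2 or polysome replicate 2 or 3 (edgeR adjusted p up to 0.0991 and 0.188). FBL, the C/D methyltransferase, had -0.01, 0.07 and -0.08 and DKC1, the H/ACA pseudouridine synthase, 0.14, 0.17 and 0.16, and neither was called. With the replicate block 5, 5 and 6 of the 17 were higher, and without YTHDF3-ADAR total RNA replicate 1, 7 were higher in that line. Over all 26804 tested genes the block called 5012, 4148 and 3640 higher, and the fit without that library 3926. Without normalization factors 12, 12 and 14 were higher and 0 lower. Over all tested genes 10895, 9096 and 6791 were then higher.

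Factors of nonsense-mediated decay were the last of the lists. Of the 13 factors, 2, 1 and 3 were called lower, beside 11.9%, 9.04% and 12.1% of all tested genes, and 0 higher, at medians of 0.02, -0.03 and -0.04. UPF1, the helicase of the pathway, was called lower in all 3 lines at -0.99, -0.51 and -0.83 (edgeR adjusted p = 0.000510, 0.0385 and 0.00195) and was named after its values were seen. In YTHDF2-ADAR its call was lost without any 1 of the compared libraries, polysome replicate 1 excepted (edgeR adjusted p up to 0.163), while in the other two lines it held with each of the compared libraries left out. The most abundant by level were SMG5, RNPS1, SMG1 and EIF4A3, none called, and SMG1, the kinase that phosphorylates UPF1, had 0.08, 0.03 and 0.16. In YTHDF1-ADAR 1 factor was lower with any 1 of the compared libraries left out, beside 2092 to 2586 of all tested genes. In YTHDF3-ADAR 5 were lower without polysome replicate 1, 2 without total RNA replicate 2 or 3, 1 without total RNA replicate 1 or polysome replicate 2 or 3, and 0 in a fit of the compared libraries alone. The fit without polysome replicate 1 called 4075 of all tested genes lower. The other fits without 1 library called 1949 to 3303, and the compared libraries alone 208. With the replicate block or in the compared libraries alone, 4 were lower and 2 higher in YTHDF2-ADAR. The block called 4010 of all tested genes lower and 4148 higher there, and the compared libraries alone 4278 and 4058. Without normalization factors 1, 0 and 1 were lower and 5, 5 and 3 higher. Over all 26804 tested genes 1527, 1364 and 1668 were then lower and 10895, 9096 and 6791 higher.

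Whether the polysome change of a host gene differed between lines was tested as an interaction. These 3 comparisons share the libraries of a line with each other and with the comparisons above. No host gene and no other gene was called (0.0% of all tested genes), and the edgeR adjusted p was 0.9999 or above for every host gene. DESeq2 also called 0 host genes, while it called 1 other gene for YTHDF3-ADAR against YTHDF1-ADAR and 9 against YTHDF2-ADAR. In the last of these it gave an adjusted p to 2380 genes only, so host genes outside those could not be called. At an unadjusted p under 0.05 there were 0 host genes for YTHDF2-ADAR against YTHDF1-ADAR, 7 for YTHDF3-ADAR against YTHDF1-ADAR and 6 for YTHDF3-ADAR against YTHDF2-ADAR. The share of all genes at that threshold is not given for this fit. With DESeq2 size factors it was reached by 162, 739 and 712 of the 26804 tested genes, and with the replicate block by 490, 2035 and 2046. The median differences were -0.02, -0.27 and -0.21 on the log2 scale.

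The 7 genes were GAS5, SNHG5, SNHG16, SNHG20, SNHG22, SNHG29 and ZFAS1. The change of GAS5 in YTHDF3-ADAR differed from that in YTHDF1-ADAR by -0.84 (SE 0.32) on the log2 scale, with a 95% interval of -1.48 to -0.21 and an edgeR p of 0.0183 before adjustment. SNHG29 differed by -0.91 (SE 0.34), SNHG5 by -0.83 (SE 0.32), SNHG16 by -0.70 (SE 0.30) and ZFAS1 by -0.60 (SE 0.20) between the same lines. SNHG20 differed by -0.57 (SE 0.21), and by -0.88 (SE 0.21) from YTHDF2-ADAR. SNHG22 went the other way, by 0.57 (SE 0.18) and 0.52 (SE 0.18). None of these passed the adjustment.

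Replicate 1 of YTHDF3-ADAR bears on these differences. Without it in both fractions GAS5 was called lower against YTHDF1-ADAR (-0.98, SE 0.21, edgeR adjusted p = 0.0442) and against YTHDF2-ADAR (-0.97, SE 0.21, adjusted p = 0.0449). SNHG3 was called higher against YTHDF1-ADAR (0.49, SE 0.11, edgeR adjusted p = 0.0435) and not against YTHDF2-ADAR (0.46, adjusted p = 0.0600). This alternative was chosen after seeing the data. It called 87 of all 26804 tested genes higher and 174 lower against YTHDF1-ADAR, and 123 and 163 against YTHDF2-ADAR.

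Total RNA was compared between lines to see whether the levels of the host genes differed with the fusion. YTHDF2-ADAR and YTHDF1-ADAR differed in 0 host genes (1.83% of all tested genes, edgeR), with 3 at an unadjusted p under 0.05. These 3 were SNHG5 at -0.62 (SE 0.23), SNHG22 at -0.35 (SE 0.12) and SNHG9 at -0.49 (SE 0.20). That unadjusted threshold was reached by 2439 of all 26804 tested genes with DESeq2 size factors and by 2342 with the replicate block. With DESeq2 the count was also 0, and in a fit of the compared libraries alone SNHG5 and SNHG6 were called lower in YTHDF2-ADAR. The fit of the compared libraries called 663 of all tested genes lower and 293 higher.

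YTHDF3-ADAR total RNA differed from YTHDF1-ADAR in 5 of the 28 host genes, which is near the 18.1% of all tested genes called in either direction (6.52% lower and 11.6% higher). GAS5 was higher by 0.98 (SE 0.23) on the log2 scale (edgeR adjusted p = 0.00936), at 256 ± 96.0 CPM against 129.7 ± 7.41 (mean ± SD, n = 3). SNHG30, which surrounds SNORD7, was higher by 0.73 (SE 0.21; edgeR adjusted p = 0.0239), with 10.3, 17.2 and 15.8 CPM against 8.59, 8.30 and 9.14. SNHG9 was lower at -1.29 (SE 0.21; edgeR adjusted p = 0.000942), with 3.28, 2.78 and 2.35 CPM against 6.85, 5.998 and 7.78. SNHG25 had -0.77 (SE 0.23) and SNHG22 -0.70 (SE 0.12; edgeR adjusted p = 0.0306 and 0.00174). In each of the 5 the groups did not overlap, as was so for 16.0% of all tested genes higher and 13.4% lower in YTHDF3-ADAR.

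Against YTHDF2-ADAR 8 host genes were called in YTHDF3-ADAR total RNA, beside 22.8% of all tested genes (7.57% lower and 15.2% higher). The 6 with the largest change were GAS5 at 1.03 (SE 0.23), SNHG5 at 0.95 (SE 0.23), SNHG30 at 0.89 (SE 0.21), SNHG9 at -0.80 (SE 0.21), SNHG32 at 0.77 (SE 0.26) and SNHG29 at 0.75 (SE 0.24). Their edgeR adjusted p were 0.00557, 0.00864, 0.00732, 0.0122, 0.0421 and 0.0355 in that order. SNHG20 and SNHG22 completed the 8, at 0.45 and -0.35. With the replicate block SNHG22, SNHG29 and SNHG32 were no longer called (edgeR adjusted p = 0.0620, 0.0567 and 0.0671) and SNHG25 was (0.0310). In total RNA this block matched replicate numbers across lines, a match that the labels do not state.

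**Figure D4:**
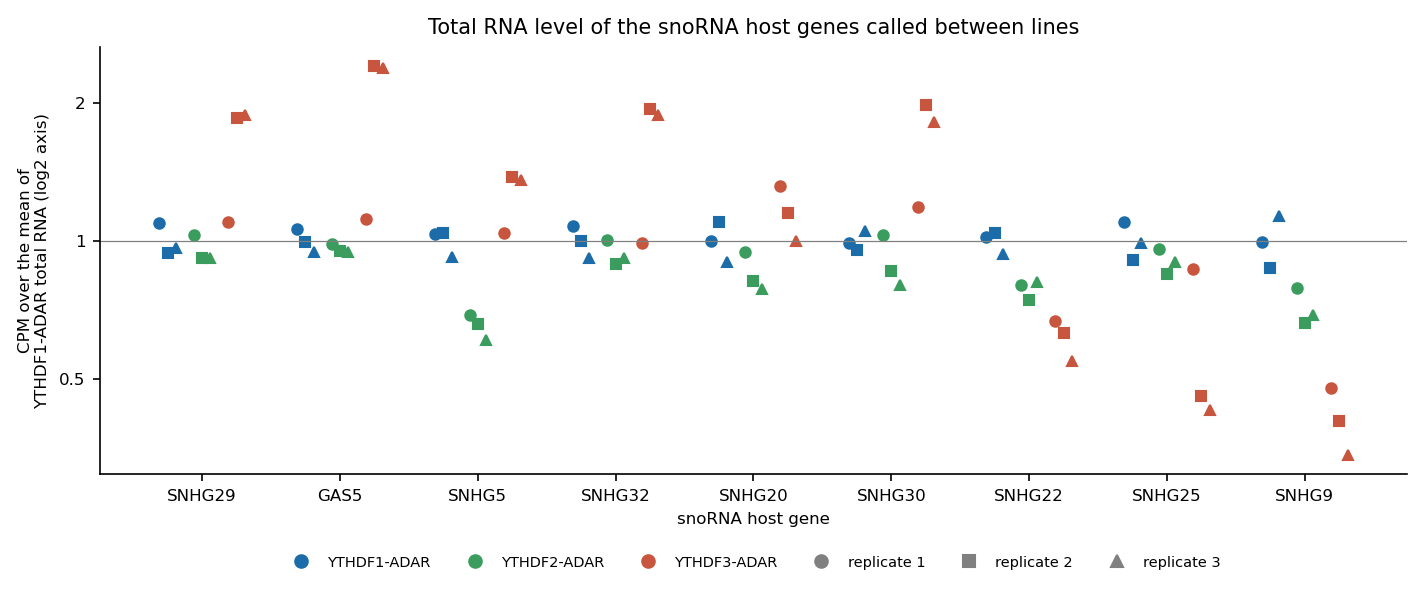
Total RNA level (CPM over the mean of the 3 YTHDF1-ADAR libraries, y axis, log2 scale) of the snoRNA host genes called between lines (x axis) in the 9 total RNA libraries, with colours for the lines and shapes for the replicate. YTHDF3-ADAR replicates 2 and 3 lie above all libraries of the other lines for SNHG29, GAS5, SNHG5, SNHG32 and SNHG30 and below them for SNHG22, SNHG25 and SNHG9, and for GAS5, SNHG29 and SNHG25 replicate 1 lies nearer to the other lines.

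The YTHDF3-ADAR total RNA differences depended on replicate 1. Replicates 2 and 3 both lay above all libraries of the other lines for 10 of the 28 host genes and both below for 11. Over all tested genes both lay above for 30.9% and both below for 23.5%. Without replicate 1 of total RNA 14 host genes were called against each of the other lines, 6 higher and 8 lower, and without replicate 1 of both fractions 16 and 17. The calls over all 26804 tested genes rose as well. Without replicate 1 of total RNA they were 5430 higher and 4565 lower against YTHDF1-ADAR, and 6006 and 5274 against YTHDF2-ADAR. Without replicate 1 of both fractions they were 6563 and 5981, and 7077 and 6570. The GAS5 call was lost without total RNA replicate 2 or 3 of YTHDF3-ADAR (edgeR adjusted p = 0.0587 and 0.0600). SNHG30 and SNHG25 lost their calls without any 1 of the libraries compared, YTHDF3-ADAR replicate 1 excepted (edgeR adjusted p up to 0.126 and 0.160). Against YTHDF2-ADAR the same was so of SNHG29, SNHG32 and SNHG22. SNHG20 was lost without replicate 2 or 3 of YTHDF2-ADAR or 1 or 2 of YTHDF3-ADAR, and SNHG9 without YTHDF3-ADAR replicate 3. A fit of the compared libraries alone called SNHG9 against YTHDF1-ADAR and SNHG5 against YTHDF2-ADAR. Of all tested genes it called 173 higher and 118 lower against YTHDF1-ADAR, and 1025 and 301 against YTHDF2-ADAR.

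No editing value could be given for the host genes. The deposited tables of edited transcripts listed 6858 genes for YTHDF1-ADAR, 4547 for YTHDF2-ADAR and 7042 for YTHDF3-ADAR, of which at most 1 per table was a lncRNA, and 0 host genes were among them. The authors' deposited table of fold changes does not name the groups it compared. In it 29 host genes had an adjusted p, and at an adjusted p under 0.05 13 were lower and 0 higher. These 13 were the same genes that were called lower in YTHDF1-ADAR above. Its fold changes lay close to those of that comparison, as for SNHG19 (-1.87 against -1.86) and SNHG25 (-1.98 against -1.97). It may thus repeat that comparison and is not separate support. The share of all genes called in it is not given here.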

How the data were processed

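Total RNA and polysome RNA of HEK293T cells with 3 inducible fusions were measured by RNA sequencing, with 3 libraries in each of 6 groups. Per the submitters' processing notes the tools named are STAR (2.7.7), featureCounts (2.0.1) and DESeq2, and the builds GRCh38 and hg38. No source used here gives the annotation release or the strand setting. The authors deposited 1 table of counts per gene and library, which was used as deposited. Their deposited comparison table also holds log2 fold changes, p-values with adjusted p-values and mean normalised signal, whose contrast is not named. Their deposited tables of edited transcripts hold an editing score, which is a sum of an editing share over sites per the file headers, and were used only for the genes they list. 1 row naming no human gene held at most 1.48e-05% of a library's counts and was left out.

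From the counts, the quasi-likelihood F test of edgeR 4.0.16 (R 4.3.3, limma 3.58.1) was run over all 18 libraries with 6 group means, TMM factors and robust spread, after filterByExpr with a minimum count of 10. P-values were adjusted by Benjamini and Hochberg over 26804 genes, at a threshold of 0.05. CPM were computed with the TMM library sizes, and RPKM divided them by the counted exon length. The SDs and intervals cover the spread between libraries. Depth ran from 42699303 to 67549159 counts, and PCR duplicates were not marked by molecular identifiers.

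The members and lists were chosen with earlier results of these data known. Values of every library are given for the 12 most abundant tested members and the 3 with the lowest and the 3 with the highest mean polysome change. SNHG31 is the exception, with values of the YTHDF1-ADAR libraries only. Other members are summarised with values for some. Up to 6 called members are named per comparison of lines, and up to 4 genes by level from each other list. Genes named after their values were seen are marked so. Total and polysome libraries share replicate numbers. Deviations from the group means correlated at 0.20 to 0.67 for all 9 same-numbered pairs, while some pairs of unlike number were as close, so the number was used as a block in an alternative. For total RNA between lines the block was instead shared by like numbers of the 3 lines, whose match the labels do not state. Other alternatives were DESeq2 1.42.0, its size factors, no normalization factors, no filter, the compared libraries alone and leaving out each library.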

Additional observations from a re-analysis of the deposited data

How the results depend on the processing

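Counts of host genes lower on polysomes kept within 1.5 times of 13 in YTHDF1-ADAR, 14 in YTHDF2-ADAR and 18 in YTHDF3-ADAR under the alternatives run, with 1 exception: the compared libraries alone gave 6 in YTHDF3-ADAR. The replicate block gave 15, 16 and 19, DESeq2 14, 15 and 18, and leaving out 1 library 11 to 12, 11 to 13 and 16 to 20. Over all tested genes the block called 4831, 4010 and 5390 lower and DESeq2 3480, 2792 and 3188. The fits without 1 library called 2092 to 2586, 1505 to 1880 and 1949 to 4075 of all tested genes lower. The 0 differences between lines stayed at 0 with every single library left out, and became 2 and 1 for YTHDF3-ADAR against YTHDF1-ADAR and YTHDF2-ADAR without its replicate 1 of both fractions. Of all tested genes the fit without that replicate called 87 higher and 174 lower, and 123 and 163. In total RNA the compared libraries alone gave 2 for YTHDF2-ADAR against YTHDF1-ADAR, 1 for YTHDF3-ADAR against YTHDF1-ADAR and 1 against YTHDF2-ADAR. Of all tested genes they gave 293 higher and 663 lower, 173 and 118, and 1025 and 301 in that order. No normalization factors gave 9 for YTHDF3-ADAR against YTHDF1-ADAR, and no filter gave 5 against YTHDF2-ADAR. The fit without normalization factors called 6776 of 26804 genes higher and 536 lower, and that without the filter 2805 and 1921 of 50119. Leaving out 1 library gave 2 to 14 and 4 to 14, and dropping replicate 1 of YTHDF3-ADAR from both fractions 16 and 17. Without that replicate more of all tested genes were called as well. The causes were not tested, and where 1 library was left out fewer samples entered the fit. Where a group had 3 libraries, small changes can go uncalled. SNHG31 had few counts.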
